A study of Mus musculus with 12 samples.

Results

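Levels of 10 genes of Nodal, Lefty and BMP signalling were followed in embryonic stem cells (ESCs) of the mouse and in the embryoid bodies (EBs) grown from them, with or without Mettl3. The genes are the ligands Nodal and Bmp4, the co-receptor Tdgf1, the antagonists Lefty1, Lefty2 and Grem1, and the response genes Id1, Id2, Id3 and Smad7. They were taken by name, as the entries of the deposited table whose RefSeq identifier maps to these symbols. All 10 were found among 19708 entries, and all 10 passed the filter on low levels that left 12704 genes for testing.

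Nodal, a ligand of the TGF-beta family, acts through activin receptors and the transcription factors SMAD2 and SMAD3, and it needs the membrane-anchored co-receptor Cripto, the product of Tdgf1. Its targets include Lefty1 and Lefty2, secreted inhibitors of Nodal that close a negative feedback loop. BMP4 signals through SMAD1, SMAD5 and SMAD9 to the Id genes, whose products bind and block basic helix-loop-helix transcription factors, and it is opposed by the secreted antagonist Gremlin 1, the product of Grem1. Smad7 encodes an inhibitory SMAD that is induced by the pathways it restrains. In stem cells of the early mouse embryo the BMP and Nodal branches are known for their parts in self-renewal and in the choice of germ layer.

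The samples were 12 libraries of poly(A) RNA 3′ ends from the C57BL/6 strain. WT ESCs and Mettl3-KO ESCs were kept in serum-free N2B27 medium with LIF and the inhibitors CHIR99021, which blocks GSK3, and PD0325901, which blocks MEK. WT EBs and Mettl3-KO EBs were aggregates grown from such ESCs in low-adherence plates in medium with serum for 8 to 21 days, with no day given for a library. Each of the 4 conditions (a genotype in a cell type) was sampled at 0, 4 and 8 h after actinomycin, which halts transcription, so levels at 4 and 8 h come from RNA made before the block. Mettl3 encodes the catalytic subunit of the complex that places N6-methyladenosine (m6A) on mRNA. Every group had 1 library, so no value has a replicate, and the labels name no clone, no deleted exon and no shared culture between times. Every p-value below is therefore set against the scatter around straight lines over time, 1 line for the 3 libraries of a condition.

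Column totals of the deposited levels ran from 3673848 to 11086748, lowest in WT EBs at 8 h, and the steps between values put the libraries at 208874 to 666805 read equivalents. A level of 10.6 to 32.7 corresponds to 1 read, depending on the library. In WT ESCs Mettl3 was at 251, 64.8 and 113 at 0, 4 and 8 h, in KO ESCs at 98.1, 65.4 and 41.8, in WT EBs at 175, 86.0 and 77.4, and in KO EBs at 16.8, 40.7 and 83.9. The KO value was the lower at 0 h in both cell types but not at every later time, and a 3′ tag outside a deleted stretch does not check a deletion. At 0 h summed naive stem cell markers were 29054 in WT ESCs, 29302 in KO ESCs, 10651 in WT EBs and 15608 in KO EBs. Across the time course the ESC sums spanned 5904 to 29054 for WT and 15031.5 to 29302 for KO. The EB sums spanned 1039 to 10651 for WT and 5421 to 15608 for KO. Summed general pluripotency markers of the ESCs spanned 40836 to 46801 for WT but only 25960 to 30999 for KO. For the EBs these sums spanned 6187 to 25358 (WT) and 18093 to 21269 (KO). The part of these marker sums in the gene differences below was not tested. Summed visceral and definitive endoderm markers were 5534 to 9258 in WT EBs, 389 to 610.4 in KO EBs and 436 to 566 in the ESCs, so the endoderm markers of an EB were near ESC level in the libraries labelled KO EB. The EB libraries also carried more scattered low values: of 1425 genes from families with no known expression there (defensins, keratin-associated proteins and the olfactory, trace amine and vomeronasal receptors), 26.7% to 36.2% were above 0 in EB libraries and 6.81% to 9.61% in ESC libraries. The 95th percentile of those genes' levels was 44.6 to 71.5 in EB libraries, and EB levels of that size are read here as near background.

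The 3′ untranslated regions of these mRNAs hold short motifs known for control after transcription. TATTTAT is the DNA spelling of the AU-rich element core bound by ZFP36-type decay factors, and GGACT is the most usual core of the m6A consensus. Both were searched on the transcript strand only, in GENCODE transcripts on GRCm38, and the motifs share no overlap. TATTTAT occurred in 4 of the 10 genes (Nodal once, Bmp4 and Id2 2 times each, Smad7 once) and in 28.4% of 12119 tested genes with an annotated 3′ untranslated region. The windows below are those of both ligands and of Id2, a BMP response gene, with the motif in capitals.
Nodal, chr10:61424944-61424970, plus strand: tatatatatgTATTTATttttgatgcc
Bmp4, chr14:46383616-46383642, minus strand: accttgacctTATTTATgactttacgt
Bmp4, chr14:46383558-46383584, minus strand: ttgacaaataTATTTATaactacatat
Id2, chr12:25094356-25094382, minus strand: gtgataccgtTATTTATgagagacttt
Id2, chr12:25094107-25094133, minus strand: gctgtgtataTATTTATatataaatat

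GGACT occurred in 9 of the 10 genes, all but Lefty1, and in 60.8% of the 12119 genes. The windows shown are those of Lefty2 and Tdgf1, whose levels were called between genotypes, and of the BMP response genes Id1 and Id3. They are a choice: Id2 held 3 sites, Nodal 2, and Bmp4, Grem1 and Smad7 1 each, and these are not shown. At 8 h in ESCs Id1 had 19.2% of its 0 h level left in WT and 95.3% in KO, with counting intervals that did not overlap. That contrast lay in the 0 h levels, 1952 in WT and 392 in KO, as the 8 h levels were 376 and 374. For Id3 the shares were 19.9% and 118%, for Id2 20.6% and 33.4%, and for Nodal 4.99% and 11.0%. The intervals of these 3 genes overlapped. Lefty1, the gene without GGACT, had 0% left in WT (interval to 36.9%) and 168% in KO (52.0% to 601%), on few reads. Those intervals did not overlap. Smad7, with 1 site, went the other way, at 40.0% in WT and 27.7% in KO. Bmp4 had 20.9% and 65.2%, Lefty2 43.2% and 106%, and Tdgf1 63.6% and 69.9%, and Grem1 had no share. A link between motif and share was not tested. Capitals mark the motif. Whether a given site carries m6A in these cells was not measured here.
Lefty2, chr1:180898119-180898143, plus strand: accatgtcagGGACTgcccacagca
Lefty2, chr1:180898688-180898712, plus strand: caaaacaccgGGACTcttaggaggg
Tdgf1, chr9:110939872-110939896, minus strand: ggctacaacaGGACTactaaaagct
Id1, chr2:152737027-152737051, plus strand: gggaccagatGGACTccagcccttc
Id1, chr2:152737112-152737136, plus strand: cgcagccaccGGACTcttggcggat
Id3, chr4:136144907-136144931, plus strand: tgggaccctgGGACTctgggaccct
Id3, chr4:136145029-136145053, plus strand: cccgagagaaGGACTgaacttgggt

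Nodal (NM_013611, chr10:61417972-61425338 on GRCm38) was present before actinomycin in all 4 conditions. Its deposited level was 1533, 54.9 and 76.5 at 0, 4 and 8 h in WT ESCs and 1176, 45.8 and 129.8 in KO ESCs. It was 851, 68.6 and 44.3 in WT EBs and 1253, 367 and 197 in KO EBs. The 0 h library stood above both later ones in every condition, and in the 3 conditions other than KO EB the later values rested on 1.40 to 4.84 reads. At 4 h and 8 h the highest Nodal values were those of the KO EBs.

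Bmp4 (NM_007554, chr14:46383525-46390669) was a low transcript throughout. Its level was 159, 43.1 and 33.4 in WT ESCs and 165, 137 and 108 in KO ESCs. It was 249, 43.1 and 35.2 in WT EBs and 140.3, 133 and 58.4 in KO EBs. As deposited, the KO libraries were above the WT libraries at both times after actinomycin in both cell types. The counting intervals of the genotypes overlapped at 0, 4 and 8 h in both cell types. The later WT values rested on 1.02 to 2.68 reads, and at 8 h both EB values were near background.

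Tdgf1 (NM_011562, chr9:110939608-110946158) had its highest levels in WT ESCs. It stood at 12269, 9237 and 7798 in WT ESCs and at 3811, 3805 and 2662 in KO ESCs. It stood at 4707, 2327 and 761 in WT EBs and at 3061, 2625 and 1581 in KO EBs. The 3 WT ESC libraries did not overlap with the libraries of any other condition, and in EBs the order of the genotypes turned between 0 h and the later times. Reads of Tdgf1 could be shared with copies of the gene elsewhere in the genome, and the treatment of such reads is not given in the sources used.

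Lefty2 (NM_177099, chr1:180893108-180899107) separated the genotypes after actinomycin. Its level was 1408, 721 and 608 in WT ESCs and 1348, 1626 and 1435 in KO ESCs. It was 2099, 660.1 and 253 in WT EBs and 3181, 2909.5 and 2878 in KO EBs. In both cell types the later KO libraries lay above the later WT libraries, and in KO EBs all 3 values were above every value of the other conditions.

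Lefty1 (NM_010094, chr1:180935022-180938401), the neighbour of Lefty2 on chromosome 1, was lower in read support. It was at 367, 43.1 and 0 in WT ESCs, where the 0 at 8 h allows a level of up to 98.1 (3 reads), and at 140.3, 170.1 and 236 in KO ESCs. It was at 349.8, 15.5 and 41.9 in WT EBs and at 436, 134 and 55.8 in KO EBs. The KO ESC values rest on 5.20 to 8.80 reads, and none of them was below the WT ESC values at 4 and 8 h. The Lefty1 and Lefty2 transcripts were 89.5% identical before the 3′ untranslated region but 47.9% identical over their last 300 bases, where 3′ tags fall.

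Grem1 (NM_011824, chr2:113748675-113758648) was an EB transcript. It was listed at 0, 17.8 and 131 in WT ESCs and at 0, 38.0 and 0 in KO ESCs, the value of 131 resting on 4.00 reads. It was at 605, 1025 and 881 in WT EBs and at 203, 414 and 175 in KO EBs. Every EB library exceeded every ESC library, and every WT EB library exceeded every KO EB library.

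Among the Id genes, Id1 (NM_010495, chr2:152736251-152737410) was at 1952, 438 and 376 in WT ESCs and at 392, 439 and 374 in KO ESCs. In WT EBs Id1 was at 802, 198 and 104, and in KO EBs at 245, 107 and 197. Before actinomycin the KO level was thus below the WT level in both cell types, whereas at 4 and 8 h in ESCs the genotypes lay within each other's counting intervals. Id2 (NM_010496, chr12:25093799-25096092) was at 420.1, 121 and 86.4 in WT ESCs and at 668, 369.7 and 223 in KO ESCs. In WT EBs Id2 was at 318, 39.6 and 96.7, and in KO EBs at 242, 127 and 123. KO ESCs had the higher Id2 value at each time. Id3 (NM_008321, chr4:136143822-136145392) was at 658, 148 and 131 in WT ESCs and at 305, 379 and 360.0 in KO ESCs. In WT EBs Id3 was at 586, 93.4 and 87.9, and in KO EBs at 1126, 269 and 176. KO EBs had the higher Id3 value at each time, and in ESCs the order turned between 0 h and 4 h.

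Smad7 (NM_001042660, chr18:75367365-75395935) was at 409 in both WT and KO ESCs at 0 h. At 4 and 8 h it was at 74.2 and 164 in WT ESCs and at 168 and 113 in KO ESCs. It was at 306, 85.6 and 91.5 in WT EBs and at 469.5, 371 and 238 in KO EBs. Each KO EB library exceeded the WT EB library of its time, and the ESC genotypes had no fixed order.

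Loss of Mettl3 in ESCs went with less Tdgf1 and more Lefty2 when the 3 times were averaged. The KO minus WT difference of Tdgf1 was -1.50 ± 0.18 on the log2 scale (SE; limma, adjusted p = 0.00011), with KO lower at 3 of 3 times. At 0 h alone it was 3.22-fold lower, with counting intervals that did not overlap. Lefty2 was higher by 0.78 ± 0.22 (limma, adjusted p = 0.0282), but at 2 of 3 times only, since at 0 h its levels were 1348 and 1408. The count was therefore 1 of 10 genes higher and 1 lower, where 14.1% of all genes tested were called, 10.9% higher and 3.27% lower. The median difference over the 10 genes was 0.37 and that over all genes tested was 0.18. The Lefty2 call was lost when any of the 6 ESC libraries was left out (0.66 to 1.01), and with the lines read at 0 h its difference was 0.13. Tdgf1 kept its call under all 16 alternatives.

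The other 8 genes did not pass the threshold between ESC genotypes. Lefty1 came nearest at 1.76 ± 0.60 (limma, adjusted p = 0.065). With a pseudocount of 2.14 it was called, at 2.45 (limma, adjusted p = 0.041), yet at 0 h its KO level was the lower one and the lines read at 0 h gave -1.32. Id2 differed by 1.16 ± 0.50 (limma, adjusted p = 0.138) and Bmp4 by 1.01 ± 0.49 (limma, adjusted p = 0.199). Id1 differed by -0.76 ± 0.39 (limma, adjusted p = 0.215), a mean of a 4.98-fold lower level at 0 h and near-equal levels later. Grem1, Id3, Nodal and Smad7 had an unadjusted p above 0.1. At 0 h alone, the intervals of the genotypes failed to overlap only for Tdgf1 and Id1, both lower in KO. How many of all genes had intervals apart at 0 h was not counted. Summed trophoblast markers were 2948 to 4102 in KO ESCs and 289 to 466 in WT ESCs, where Cdx2, Krt7 and Elf5 were at 0 in all 3 libraries (Elf5 was at 0 in KO ESCs too). Their part in the differences above was not tested, and in bulk samples fewer cells of a type and less RNA per cell cannot be told apart.

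In EBs the genotypes differed in Lefty2. It was higher in KO than in WT EBs by 2.06 ± 0.22 on the log2 scale (limma, adjusted p = 2.92e-05), higher at 3 of 3 times. The difference grew over the course: KO EBs were 1.52-fold higher at 0 h, whereas at 8 h the levels were 2878 and 253. With the lines read at 0 h it was 0.63 and no longer called (limma, adjusted p = 0.61), while the other 15 alternatives kept the call, with 1.66 to 1.89 under the 3 other scalings. No other gene passed: the count was 1 of 10 higher and 0 lower, against 9.22% of all genes called, 7.66% higher and 1.56% lower. The median difference was 0.78 over the 10 genes and 0.09 over all genes.

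Several of the uncalled genes nevertheless kept the same order over the 3 EB times in the deposited values. Grem1 was lower in KO EBs by -1.70 ± 0.64 (limma, adjusted p = 0.127). Smad7 was higher by 1.31 ± 0.47 (limma, adjusted p = 0.112) and Id3 by 1.10 ± 0.43 (limma, adjusted p = 0.137). Nodal differed by 1.60 ± 0.78 (limma, adjusted p = 0.264) and Lefty1 by 1.08 ± 0.60 (limma, adjusted p = 0.354). As deposited, each of these 5 genes kept its sign at 0, 4 and 8 h. How many of all genes did so was not counted, so the number has no background. At 8 h Lefty1 was at 41.9 (2.38 reads) in WT EBs and 55.8 in KO EBs, both near background. Equal column totals multiply these libraries by 2.33 and 1.37, which turns the Lefty1 order at 8 h. Ribosomal protein scaling, with factors of 2.51 and 1.14, turns the Id3 order at 8 h. Column totals were also higher in KO than in WT EBs at 4 h (6.88e+06 and 6.06e+06) and at 8 h (6.25e+06 and 3.67e+06). Lefty1 did pass when WT EB at 0 h or WT EB at 8 h was left out, at 2.73 in each case. In both refits the WT EB value is that of the 4 h library alone. Lefty1 was at 15.5 there, or 0.96 reads, so these passes rest on a value near background. Bmp4, Id2 and Tdgf1 (above 0) and Id1 (below 0) had an unadjusted p above 0.1. At 0 h alone, intervals that did not overlap put Lefty2 and Id3 higher in KO EBs and Tdgf1, Grem1 and Id1 lower, the last 3.28-fold. The share of all genes with such intervals was not counted, so these 0 h results have no background either.

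Beside these EB values stand large shifts in markers of other cell types. Summed parietal endoderm and basement membrane markers lay at 18020 to 24134 in WT EBs but at 2222 to 2736 in KO EBs, and summed fibroblast and feeder markers at 4222 to 4564 in the WT and 1938 to 2336 in the KO. Together with the endoderm sums above they moved with genotype, and their part in the Grem1 and Lefty2 values was not tested.

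**Figure D1:**
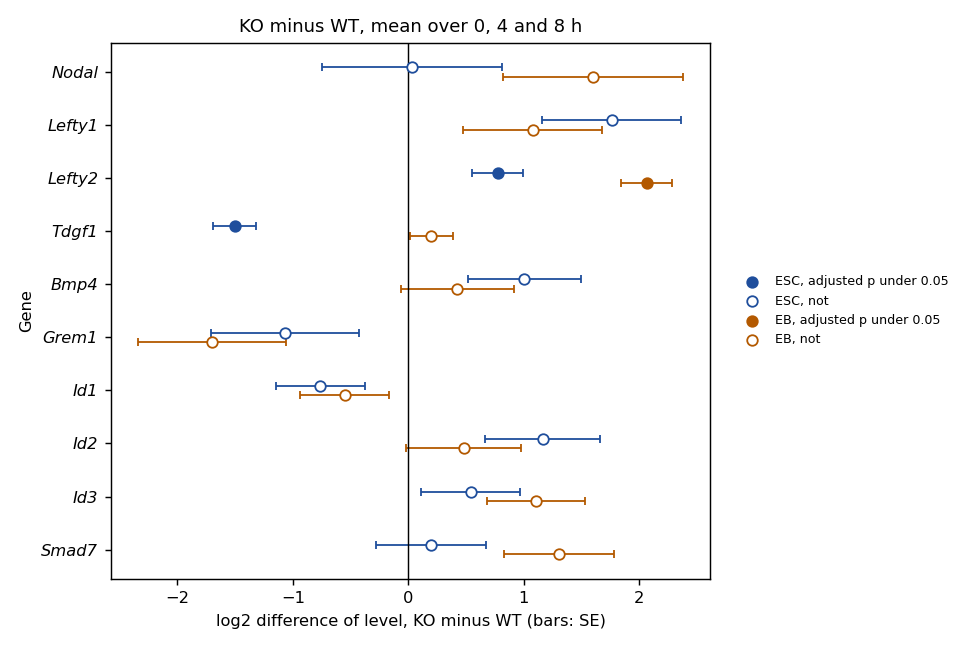
Difference between KO and WT (log2, mean over 0, 4 and 8 h) for each gene, in ESCs (blue) and EBs (orange), with bars of 1 SE from limma and filled points where the adjusted p was under 0.05. The filled points are Tdgf1 at -1.50 and Lefty2 at 0.78 in ESCs, and Lefty2 at 2.06 in EBs.

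The effect of genotype differed between cell types for Tdgf1 and Lefty2. For Tdgf1 the KO minus WT difference was 1.70 ± 0.26 higher in EBs than in ESCs (limma, adjusted p = 0.00173). The sign was the same in 12 of 12 refits that left out 1 library, with values of 1.51 to 1.87, but the call was lost under 4 of 22 alternatives: no filter, no variance trend, additive time terms, and lines read at 0 h, where the value was 0.94. For Lefty2 it was 1.29 ± 0.31 higher in EBs (limma, adjusted p = 0.0373). The Lefty2 call was lost under 17 of 22 alternatives, including every refit without 1 library except that without WT ESC at 4 h. Nodal, Lefty1, Bmp4, Grem1, Id1, Id2, Id3 and Smad7 had an unadjusted p above 0.1. The 2 calls among 10 genes, both higher, stood against 2.86% of all genes (1.5% higher, 1.35% lower), with medians of 0.39 for the 10 genes and -0.05 for all genes.

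Between cell types, Grem1 was the gene that set EBs apart. In WT cells it was higher in EBs by 4.71 ± 0.64 (limma, adjusted p = 6.81e-05) and in KO cells by 4.08 ± 0.64 (limma, adjusted p = 0.00115). Against 3 reads, the floor for the ESC libraries at 0 h, its 0 h level was at least 8.78-fold higher in WT EBs and at least 2.70-fold higher in KO EBs. Without KO ESC at 0 h or without KO ESC at 8 h, the KO difference ranged down to 2.45. The WT call was kept under all 16 alternatives. The KO call was lost under 2 of 16, with no variance trend and with lines read at 0 h. Summed fibroblast and feeder markers were 4222 to 4564 in WT EBs against 2406 to 4246 in WT ESCs, and 1938 to 2336 in KO EBs against 1679 to 2268 in KO ESCs; their part was not tested.

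Tdgf1 was lower in WT EBs than in WT ESCs by -2.24 ± 0.18 (limma, adjusted p = 1.1e-06), a call kept under all 16 alternatives, with -1.33 to -1.55 under the other scalings. In WT cells Id1 was also lower, by -1.39 ± 0.39 (limma, adjusted p = 0.0119). That call was lost under each of the 3 other scalings (-0.51 to -0.72) and without WT ESC at 0 h or 8 h (-0.75) or WT EB at 4 h (-1.20). The count for WT was thus 1 of 10 higher and 2 lower, where 3.49% and 29.1% of all genes were called higher and lower (32.6% in all). The other 7 genes had an unadjusted p above 0.1. The medians were -0.38 for the 10 genes and -0.50 for all genes.

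In KO cells Lefty2 joined Grem1 on the higher side, at 1.02 ± 0.22 (limma, adjusted p = 0.00564). Lefty2 kept its call under the other scalings (1.40 to 1.71) but not without KO ESC at 0 h or 8 h (0.87) or KO EB at 0 h or 8 h (0.99). Id1 was lower by -1.17 ± 0.39 (limma, adjusted p = 0.0393) and Tdgf1 by -0.53 ± 0.18 (limma, adjusted p = 0.047). Both of these calls were lost without any of the 6 KO libraries and under every other scaling, and for Tdgf1 the sign turned under equal column totals (0.15) and median-ratio scaling (0.14). Id2, at -1.24 ± 0.50, did not pass (limma, adjusted p = 0.0789), and the other 5 genes had an unadjusted p above 0.1. The count for KO was 2 higher and 2 lower, against 0.929% and 23.2% of all genes (24.1% in all). The medians were -0.05 for the 10 genes and -0.61 for all genes.

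**Figure D2:**
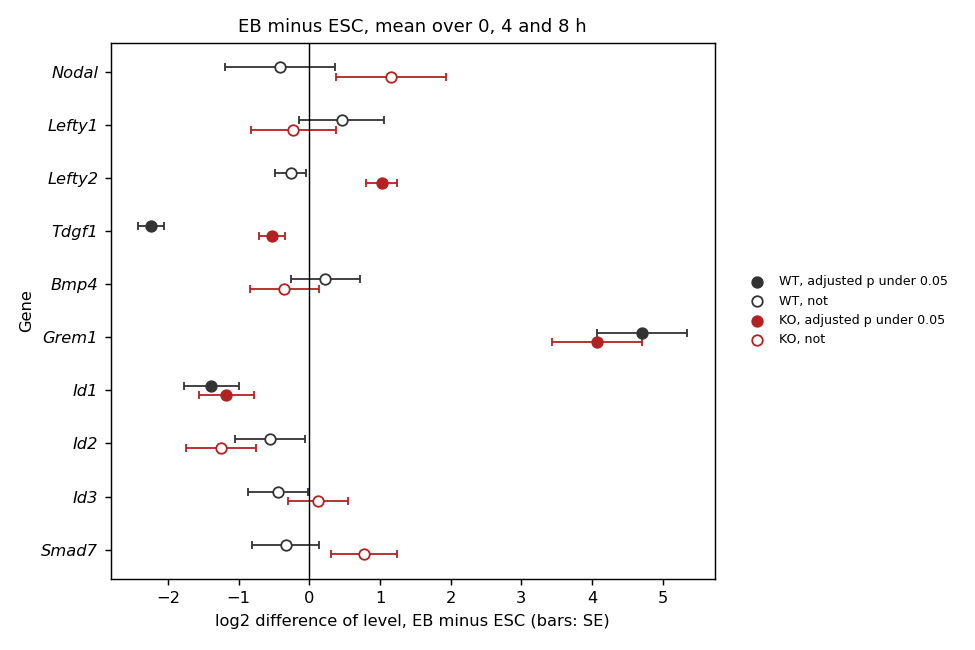
Difference between EBs and ESCs (log2, mean over 0, 4 and 8 h) for each gene, in WT (black) and KO cells (red), with bars of 1 SE from limma and filled points where the adjusted p was under 0.05. Grem1 lies at 4.71 and 4.08, far to the right of the other genes.

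After actinomycin, 9 of the 10 mRNAs fell when the 4 conditions were averaged, Grem1 being the exception. On this measure 21.4% of all genes tested fell and 0.236% rose (21.7% called in all). Nodal had the steepest mean slope, at -0.43 ± 0.08 log2 units per hour (limma, adjusted p = 0.00213). Lefty1 followed at -0.32 ± 0.07 (limma, adjusted p = 0.00266) and Id3 at -0.23 ± 0.05 (limma, adjusted p = 0.00278). The slopes of Bmp4, Id2, Smad7 and Id1 were -0.20, -0.20, -0.18 and -0.17, with adjusted p (limma) of 0.0154, 0.0164, 0.022 and 0.00788. The shallowest of the called slopes belonged to Tdgf1 at -0.15 ± 0.02 (limma, adjusted p = 0.000178) and Lefty2 at -0.13 ± 0.02 (limma, adjusted p = 0.00119). Grem1 had 0.14 ± 0.07 (limma, adjusted p = 0.184). The median slope was -0.19 for the 10 genes and -0.05 for all genes. The neighbours in this order mostly differ by less than their standard errors.

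The count of 9 fell when some libraries were left out. It was 2 without WT EB at 0 h, 3 without WT ESC or KO EB at 0 h, and 4 without KO ESC at 0 h. Without KO EB at 8 h it was 6, and without KO ESC at 8 h it was 5, with Grem1 then called upward at 0.29 (limma, adjusted p = 0.0153). It was 6 with no variance trend, 5 with equal column totals and 4 with median-ratio scaling, and under those scalings all 9 genes kept a negative slope. A slope holds only relative to the scaling of the deposited table and gives no half-life.

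The share left at 8 h lay below the median of all genes for each of the 9 genes with a share in WT ESCs, and for all but Grem1 in WT EBs. In WT ESCs it was 19.2% for Id1 and 19.9% for Id3. Nodal at 4.99% (exact 95% counting interval 0.74% to 17.2%), Id2 at 20.6% (3.37% to 74.5%) and Bmp4 at 20.9% (0.49% to 161%) rested on under 3 reads at 8 h, so only the upper ends are informative. Smad7 kept 40.0%, Lefty2 43.2% and Tdgf1 63.6%, and Lefty1 was at 0 (interval to 36.9%). The median was 20.6% over the 9 genes present at 0 h and 71.2% over all genes. In WT EBs Lefty2 kept 12.0%, Id1 12.9%, Id3 15.0% and Tdgf1 16.2%. Nodal (5.21%), Lefty1 (12.0%) and Bmp4 (14.1%) were under 3 reads and near background there at 8 h, so their shares are upper limits, with intervals reaching 17.4%, 44.1% and 59.5%. Smad7 kept 29.9% and Id2 30.4%, while Grem1 stood at 146% of its 0 h level (94.6% to 226%). The median was 14.6% over the 10 genes and 46.0% over all genes. Under the other scalings it was 31.4% to 34.2% over the 10 genes and 99.2% to 108% over all genes. These intervals cover counting error only.

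In KO cells the same genes mostly kept more of their 0 h level. In KO ESCs Nodal kept 11.0%, Smad7 27.7%, Id2 33.4%, Bmp4 65.2% and Tdgf1 69.9%. Id1 stood at 95.3%, Lefty2 at 106%, Id3 at 118% and Lefty1 at 168%, the last with an interval of 52.0% to 601%. The medians were 69.9% for these genes and 90.6% for all genes. In KO EBs Lefty1 kept 12.8%, Nodal and Id3 15.7% each, Bmp4 41.6%, Smad7 50.7%, Id2 51.0% and Tdgf1 51.6%. Lefty1 (55.8) and Bmp4 (58.4) were near background there at 8 h, so their shares are upper limits. Id1 stood at 80.3%, Grem1 at 86.0% and Lefty2 at 90.5%, with medians of 50.8% for the 10 genes and 79.2% for all genes.

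At 8 h the share was higher in KO than in WT for 8 of 9 genes in ESCs, all but Smad7, where 64.4% of all genes were. In EBs it was higher for 9 of 10, all but Grem1, where 73.0% of all genes were. Lefty1 (12.8% in KO, 12.0% in WT) and Id3 (15.7% and 15.0%) were near ties. Scaling changed the EB count: with equal column totals it was 5 of 10 (43.1% of all genes), and in ESCs 7 of 9 (56.2%). At 4 h the counts were 9 of 9 in ESCs (59.8% of all genes) and 10 of 10 in EBs (68.0%), and with equal column totals 9 of 9 (57.1%) and 9 of 10 (49.5%). Lefty2 in EBs kept intervals that did not overlap, 6.47% to 20.7% in WT and 76.0% to 108% in KO at 8 h. Under equal column totals the Lefty2 share was 27.2% in WT EBs and 102.4% in KO EBs. No share has a replicate.

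**Figure D3:**
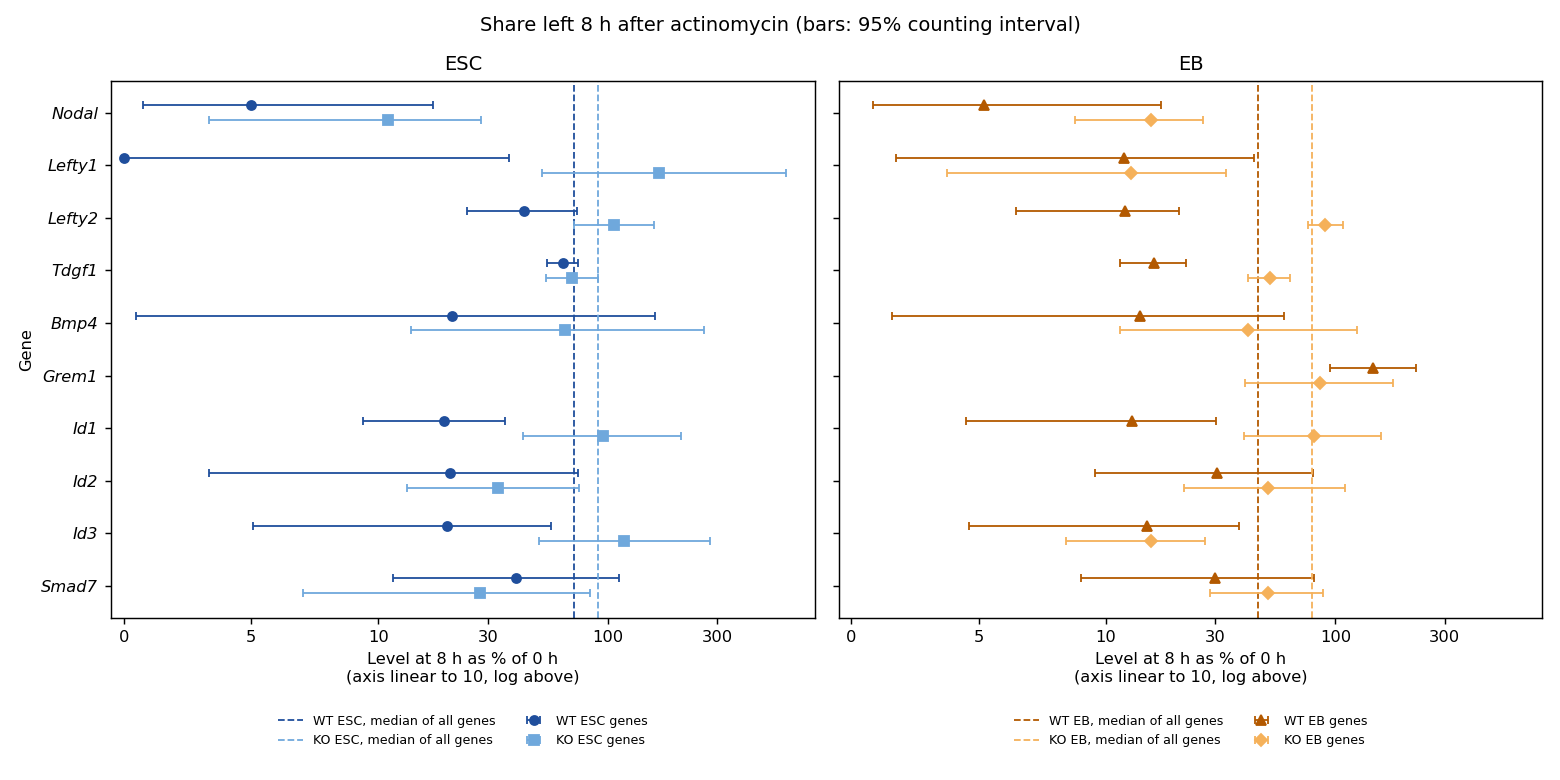
Level at 8 h as a percent of the level at 0 h (axis linear to 10 and log above) for each gene in ESCs and EBs, WT and KO, with exact 95% counting intervals. Dashed lines mark the median over all genes in each condition, and in WT ESCs the 9 genes with a 0 h level all lie left of that median of 71.2%.

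Fitted within each condition, the falls were called mainly in WT EBs. There 6 of 10 genes fell, where 26.7% of all genes did (26.8% called in all). Lefty2 had -0.38 ± 0.05 (limma, adjusted p = 0.000222) and Tdgf1 -0.33 ± 0.04 (limma, adjusted p = 0.000191) log2 units per hour. Id1 had -0.36, Id3 -0.33, Bmp4 -0.32 and Nodal -0.50, with adjusted p (limma) of 0.00642, 0.0169, 0.0365 and 0.0379. With each of the 3 other scalings only 2 calls were left, those of Lefty2 (-0.23 to -0.24) and Tdgf1 (-0.17 to -0.19). Lefty1 at -0.35, Smad7 at -0.21 and Id2 at -0.20 did not pass, with adjusted p (limma) of 0.0566, 0.157 and 0.185. Without WT EB at 0 h the count was 2 and without WT EB at 8 h it was 1. The median slope was -0.33 for the 10 genes and -0.12 for all genes.

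In WT ESCs Lefty1 fell by 0.68 ± 0.13 log2 units per hour (limma, adjusted p = 0.00783), and Grem1 was called upward at 0.50 ± 0.14 (limma, adjusted p = 0.0463). The Grem1 slope rests on 4.00 reads at 8 h and lost its call under 9 of 11 alternatives, among them all 3 other scalings (0.46 to 0.49) and the fits without WT ESC at 0 h (0.60) or at 8 h (0.41). The Lefty1 slope lost its call without those libraries too (-0.65 and -0.72). Just outside the threshold were Id1 at -0.29 (limma, adjusted p = 0.0531), Lefty2 at -0.15 (0.0811), Nodal at -0.52 (0.0851) and Id3 at -0.28 (0.0888). Id2 at -0.27, Bmp4 at -0.25 and Tdgf1 at -0.08 had adjusted p (limma) of 0.162, 0.198 and 0.27. These 2 of 10 calls compare with 5.51% of all genes (5.35% lower, 0.157% higher). The median slope there was -0.26 for the 10 genes and -0.04 for all genes. In KO ESCs limma called 0 of 10 genes (0.0315% of all genes), with 2 at an unadjusted p under 0.05 and medians of -0.04 and -0.01. The lowest p there were those of Nodal at -0.39 (limma, adjusted p = 0.452), Smad7 at -0.22 (0.483) and Id2 at -0.19 (0.581). In KO EBs limma called 0 of 10 (0% of all genes), with 3 at an unadjusted p under 0.05 and medians of -0.12 and -0.03. These were Id3 at -0.33 (limma, adjusted p = 0.332), Tdgf1 at -0.12 (0.43) and Lefty1 at -0.35 (0.486), followed by Nodal at -0.33 (0.718).

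**Figure D4:**
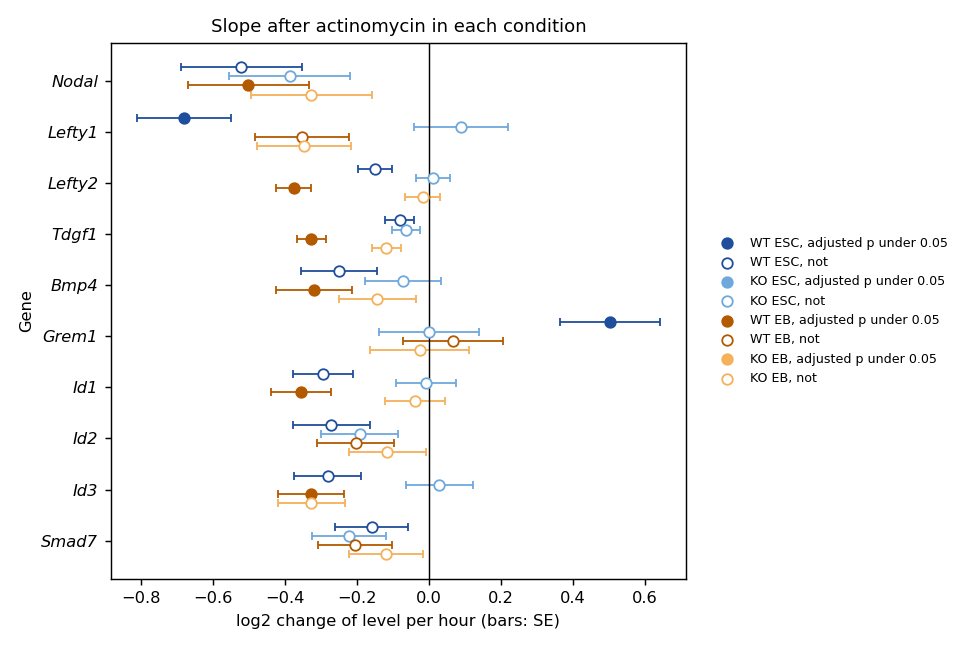
Slope of the log2 level per hour after actinomycin for each gene in the 4 conditions, with bars of 1 SE from limma and filled points where the adjusted p was under 0.05. The filled points are 6 falls in WT EBs, the fall of Lefty1 and the Grem1 slope of 0.50 in WT ESCs.

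The difference in slope between genotypes was called for Lefty2 in EBs. The KO slope was 0.36 ± 0.07 log2 units per hour above the WT slope (limma, adjusted p = 0.0347), so 1 of 10 genes was called, where 1.19% of all genes were, all of them higher. Under the other scalings the Lefty2 difference was 0.20 to 0.26 and not called. It was also lost on leaving out any EB library other than WT EB at 4 h (0.32 to 0.40). Tdgf1 had 0.21 ± 0.06 (limma, adjusted p = 0.0738) and Id1 0.32 ± 0.12 (limma, adjusted p = 0.168). The other 7 genes had an unadjusted p above 0.1. The medians in EBs were 0.13 for the 10 genes and 0.08 for all genes.

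In ESCs limma called 0 of the 10 slope differences, with 5 at an unadjusted p under 0.05, where 0.0394% of all genes were called. Lefty1 had 0.77 ± 0.18 (limma, adjusted p = 0.133), Id3 0.31 ± 0.13 (limma, adjusted p = 0.43) and Id1 0.29 ± 0.12 (limma, adjusted p = 0.424). Lefty2 had 0.16 ± 0.07 (limma, adjusted p = 0.429) and Grem1 -0.50 ± 0.20 (limma, adjusted p = 0.384), and the other 5 genes had an unadjusted p above 0.1. The medians were 0.15 for the 10 genes and 0.04 for all genes.

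Of 91 further genes of the pathway, listed as ligands, processing factors, receptors, SMADs, antagonists, nuclear partners and targets, 65 passed the filter. Between ESC genotypes 10 (15.4%) were higher and 2 (3.08%) lower in KO, beside 10.9% and 3.27% of all genes (limma, adjusted p under 0.05, as for all calls here). Among the largest were the type I receptor gene Acvrl1 (-2.53), the ligand gene Bmp7 (2.28), the SMAD co-repressor gene Skil (2.10), the phosphatase gene Dusp9 (-1.96) and the SMAD phosphatase gene Ppm1a (1.72). Several of these rest on very few reads: Acvrl1 was listed at 0 in KO ESCs at 4 and 8 h, Bmp7 was at 23.0, 24.7 and 32.7 in WT ESCs, about 1 read each, and Skil was at 0 in WT ESCs at 8 h. Of the 12 calls, 8 were kept under all 3 other scalings, and those of Acvrl1 and Skil were not. Between EB genotypes 6 (9.23%) were higher and 3 (4.62%) lower, beside 7.66% and 1.56% of all genes. Follistatin (Fst), an activin antagonist, had -3.75, with 1125, 737 and 741.5 in WT EBs against 77.0, 49.9 and 43.9 in KO EBs. Its KO EB values at 4 and 8 h were near background, so the size of this difference is set against a floor. The co-repressor genes Tgif1 (2.11), Ski (1.57) and Tgif2 (1.42) were higher, the co-receptor gene Eng (1.37) likewise, and the co-receptor gene Tgfbr3 was lower (-1.95). Tgfbr3 was at 42.7, 65.9 and 62.0 in KO EBs, near background as well. Of the 9 calls, 5 were kept under all 3 other scalings, and those of Ski and Eng were lost with ribosomal protein scaling (1.18 and 0.99). The medians over the 65 genes were 0.34 in ESCs and 0.02 in EBs, beside 0.18 and 0.09 over all genes. The genotype difference itself differed between cell types for 4 genes, among them Tgfbr3 (-3.26), Fst (-3.04) and Dusp9 (2.07), and all 4 calls were kept under the other scalings.

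Between cell types, 5 of the 65 genes (7.69%) were higher and 9 (13.8%) lower in WT EBs than in WT ESCs, beside 3.49% and 29.1% of all genes. Tgfbr3 (2.63), the activin subunit gene Inhba (2.61) and Fst (2.41) were among the higher ones, and Dusp9 (-2.60) was the lowest. Tgfbr3 was at 22.0, 43.6 and 32.7 in WT ESCs, under 3 reads each, and Inhba was at 0, 40.6 and 0 there. These differences are thus set against a floor. In WT EBs Inhba was at 44.7, 219 and 59.1, so only its 4 h value stood clear of the EB background. In KO cells 0 were higher and 9 (13.8%) lower, beside 23.2% of all genes lower, led by Gdf3 (-1.83), a ligand of the Nodal branch, and Acvr2b (-1.37), a receptor gene. Of these 9 calls only that of Gdf3 was kept under all 3 other scalings. Averaged over conditions 14 (21.5%) fell after actinomycin, beside 21.4% of all genes, and 1 rose, the ligand gene Bmp6 (0.19). Tgif1 was the steepest at -0.35 per hour, and it was at 5032, 1029 and 311 in WT ESCs and at 1525, 332 and 59.1 in WT EBs. In KO EBs Tgif1 was at 2267, 1538 and 799. The slopes of Tgif1 and Tgif2 were higher in KO than in WT EBs, by 0.38 and 0.39, the only calls among the 65 genes (3.08%, beside 1.19% of all genes). Both calls were lost under each other scaling (0.23 to 0.29 and 0.24 to 0.30), and 0 of the 65 were called in ESCs, where 5 of all 12704 genes were. In WT EBs at 8 h Tgif1 (59.1) and Tgif2 (39.0) were near background.

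The 3 genes most like each of the 10 across the 12 libraries were ranked by Pearson's r of the log2 level, as a description. For Nodal they were Bcl7a (r = 0.956), H2ac23 and an entry without a symbol, and for Bmp4 they were Zfp281 (r = 0.963), Prrt2 and Pagr1a. Tdgf1 ran closest to Asns (r = 0.974), Zdbf2 and Vps4b. Lefty1 ran closest to Gpat4 (r = 0.936), Timm9 and Frat2, and Lefty2 to H1f0 (r = 0.918), Bola1 and St3gal4. The genes nearest to Grem1 were Col6a2, Pdgfra and Timp2, all at r = 0.924 to 0.925. For Id1 the nearest were Cfap410 (r = 0.945), Tet1 and Socs3, for Id2 Edc3 (r = 0.955), Numbl and N4bp3, and for Id3 Ppp1r15b (r = 0.914), Utp23 and Mcl1. For Smad7 they were Zfp217 (r = 0.944), Bcl7a and Hdc, so Bcl7a was near both Nodal and Smad7. The 12 points share depth differences and the course after actinomycin.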

How the data were processed

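The values are the authors' normalized signal, listed by RefSeq identifier in 12 columns of 1 deposited table. Bowtie, Bowtie2 2.1.0, CASAVA 1.8.2 and build mm10 are named in the submitters' processing notes. Counting and scaling are not given in the sources used here. Per the labels' protocols, RNA was fragmented and 3′ poly(A) ends were selected with strand kept. Of 19746 entries, 38 identical duplicates were dropped. Values under 100 were whole multiples of a step (at least 99.8%, within 0.1 of a step); 50 steps were taken as 1 read. Whole counts were not recovered. Exact 95% Poisson intervals rest on these read equivalents.

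Tests used limma 3.58.1 (R 4.3.3) on log2 of the level plus 8.58 (1 ppm of the average library's column total), which understates changes of low genes. Genes with a mean of at least 42.9 (5 ppm) were tested, 12704 in all. Each of the 4 conditions had its own intercept and line over time, leaving 4 residual degrees of freedom and a trended prior worth 11.1 (median). Level differences are means over 0, 4 and 8 h. Adjusted p-values are Benjamini-Hochberg over all tested genes, with a threshold of 0.05. The script was checked on simulated data.

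The 10 genes, the pathway list and the marker lists were chosen with earlier results of these data known. The rule names all 10 genes in every comparison, with estimates printed where the unadjusted p was under 0.1, and up to 6 called pathway genes with the largest difference. Some genes that this rule takes from the pathway list are not reported here. For each of the 10, the 3 genes of highest r were ranked. The scaling check of pathway calls was added after seeing the data. Alternatives were the pseudocount, the filter, 3 other scalings (equal column totals, median ratios, ribosomal protein genes), no variance trend, additive time terms, lines read at 0 h, and leaving out each library. Windows of sequence are from GENCODE transcripts, and coordinates are GRCm38, counted from 1.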

Additional observations from a re-analysis of the deposited data

Results flagged for a closer look

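The KO minus WT difference of Lefty2 was 1.29 log2 units higher in EBs than in ESCs, and that of Tdgf1 was 1.70 higher. Both stand out because the difference between cell types was itself tested (limma, adjusted p = 0.0373 and 0.00173). For Tdgf1 the parts were -1.50 in ESCs and an uncalled difference in EBs. For Lefty2 they were 0.78 in ESCs and 2.06 in EBs.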

How the results depend on the processing

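No paired analysis was possible because each group had 1 library and replicate numbers were given in accession order only. Alternatives for slopes within a condition were chosen after seeing the data. For KO minus WT in ESCs, 2 of the 10 genes were called, 3 with a pseudocount of 2.14, and 1 with no filter, median-ratio scaling, no variance trend, additive time terms or lines read at 0 h, and 1 to 2 without 1 library. For KO minus WT in EBs, 1 was called, 2 with 4 times the pseudocount, 0 with lines read at 0 h, and 1 to 2 without 1 library. For EB minus ESC in KO cells, 4 were called, 2 with no filter or any other scaling, 0 with no variance trend, 1 with additive time terms, 0 with lines read at 0 h, and 1 to 2 without 1 library. For the difference between cell types, 2 were called, 0 with no filter, 1 with equal column totals or ribosomal protein scaling, 0 with no variance trend, additive time terms or lines read at 0 h, and 1 to 2 without 1 library. For the mean slope, 9 were called, 2 with no filter, 5 with equal column totals, 4 with median-ratio scaling, and 2 to 9 without 1 library. For the slope difference in EBs, 1 was called, 0 with no filter, 2 with a filter at 20 ppm, 0 with each other scaling or no variance trend, and 0 to 2 without 1 library. For slopes in WT ESCs, 2 were called, 1 with a pseudocount of 2.14, 0 with no filter, 5 with a filter at 20 ppm, 1 with equal column totals or median-ratio scaling, 0 with no variance trend, and 0 to 4 without 1 library. For slopes in WT EBs, 6 were called, 2 with no filter, each other scaling or no variance trend, and 1 to 7 without 1 library. The cause was not tested. For EB minus ESC in WT cells, 2 to 4 were called without 1 library.

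Signs turned for Lefty1 between ESC genotypes with lines read at 0 h (-1.32), and for Tdgf1 between KO EBs and KO ESCs with equal column totals (0.15) and median-ratio scaling (0.14). Without 1 library, Grem1 ranged from -0.0165 to 0.29 in the mean slope and from -1.11 to 0.11 in the ESC slope difference. Nodal slopes ranged from -1.15 to 0.11 in WT ESCs and from -1.11 to 0.34 in KO ESCs. In WT EBs slopes ranged from -0.97 to 0.27 for Lefty1, -0.69 to 0.28 for Id2 and -0.44 to 0.022 for Smad7. Over all genes, EB minus ESC in WT cells gave 444 higher and 3701 lower, but 1982 and 651 with equal column totals, 1347 and 1052 with median-ratio scaling and 1649 and 648 with ribosomal protein scaling, with the median of all genes moving from -0.50 to 0.42, 0.17 and 0.40. In KO cells it gave 118 and 2948, but 210 and 99, 112 and 71, and 141 and 536. KO minus WT in EBs gave 973 and 198, but 619 and 353, 653 and 271, and 408 and 562, with medians of 0.09, -0.16, -0.11 and -0.33. KO minus WT in ESCs gave 1381 and 416, but 1047 and 668 with median-ratio scaling. Counts over all genes also moved. Between ESC genotypes 1797 became 561 with no filter, 1047 with no variance trend, 1142 with additive time terms and 47 with lines read at 0 h. Between EB genotypes 1171 became 532, 353, 503 and 56 in that order. EB minus ESC in WT cells had 4145, and 206 with lines read at 0 h. In KO cells 3066 became 111 with no variance trend, 723 with additive time terms and 36 with lines read at 0 h. The difference between cell types had 363, and 112, 63, 159 and 30 in the order above. The mean slope had 2753, and 1208 with no filter, 1321 and 1055 with equal totals and median ratios, and 1636 with no variance trend. The EB slope difference had 151, and 32 with no filter, 701 at 20 ppm, 0, 0 and 5 with the other scalings and 0 with no variance trend. Slopes in WT ESCs had 700, and 12 with no filter, 337 with median ratios and 172 with no variance trend. Slopes in WT EBs had 3410, and 1666 with no filter, 303, 280 and 241 with the other scalings and 977 with no variance trend. Levels under about 3 reads cannot be told from 0 at this depth.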
